A study of Mus musculus with 10 samples.

Results

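The route that turns cysteine into taurine and sulfate was followed in mouse liver through 8 genes, Csad, Cdo1, Cth, Slc6a6, Ethe1, Suox, Tst and Mpst. They are 8 of the 18193 genes that the array's annotation names by probe sets with a single symbol. All 11 probe sets naming exactly 1 of the 8 were taken, whatever their level, out of 45101 on the array. The genes were chosen with the APOE4 against APOE3 values of these arrays in view, because Csad stood out in them. Their differences between the genotypes are therefore given as a description and with no p; how many passed in the fit over all probe sets is stated only beside the share of all probe sets that passed.

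Total liver RNA came from 10 female mice aged 3 months on a C57BL/6 background, with 1 extract and 1 array per animal. The mice were homozygous for a targeted replacement of Apoe, 5 with the human APOE3 gene and 5 with the human APOE4 gene. The human isoform is driven by the murine Apoe promoter in both groups, so no animal kept mouse Apoe. All 10 ate a semi-synthetic diet with 41% of its energy as milk fat, cholesterol at 2 g/kg and casein at 17.1% as the protein; the labels give its length as 6 weeks in one place and 2 months in another. No mouse with its own Apoe and no mouse on another diet was analysed here. Levels are the deposited log2 values from GCRMA, a background correction and normalization for such arrays, so 1 unit is a doubling, and readings under about 4 are near background. Tested probe sets are the 14732 whose mean over the 10 arrays reached 4.

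Cysteine is made in the liver from homocysteine by transsulfuration and is either built into glutathione or oxidized. Cysteine dioxygenase commits it to cysteine sulfinate, which cysteine sulfinic acid decarboxylase turns into hypotaurine, the precursor of taurine. Taurine is the main amino acid that mouse liver joins to bile acids before they are secreted. Along another branch the sulfur leaves as sulfide or sulfite and is oxidized in mitochondria to thiosulfate and sulfate.

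Csad, the decarboxylase of taurine synthesis, was higher in every APOE4 liver than in any APOE3 liver. Its single probe set read 8.04, 8.49, 8.57, 8.72 and 7.65 log2 in APOE3 replicates 1 to 5. In APOE4 replicates 1 to 5 it read 9.10, 9.55, 9.60, 10.39 and 9.81. The groups did not overlap: the lowest APOE4 animal lay 0.38 log2 above the highest APOE3 animal, and the top value belonged to APOE4 replicate 4. The mean was 8.29 ± 0.44 log2 in APOE3 and 9.69 ± 0.47 in APOE4 (SD, n = 5 each), a log2 difference of 1.40 (SE 0.25) or 2.64-fold. By size, 24 of the 14732 tested probe sets, 0.163%, differed by more. Csad was chosen for this difference, so nothing is read from that rank. Without any 1 animal the difference stayed between 1.22 and 1.55. As whole liver was measured, more cells that express a gene and more RNA per cell cannot be told apart.

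The gene has 2 transcription starts in the RefSeq promoter table of GRCm38.p6, 16009 bases apart on the minus strand of chromosome 15. The probe set cannot be assigned to either here. The 250 bases before each start are shown, since Csad is the gene of the route with the largest difference, with the letters that matched a searched motif in capitals. They lie at chr15:102205053-102205302 for the upstream start and at chr15:102189044-102189293 for the downstream start, both given 5′ to 3′ along the gene.
Csad, upstream start: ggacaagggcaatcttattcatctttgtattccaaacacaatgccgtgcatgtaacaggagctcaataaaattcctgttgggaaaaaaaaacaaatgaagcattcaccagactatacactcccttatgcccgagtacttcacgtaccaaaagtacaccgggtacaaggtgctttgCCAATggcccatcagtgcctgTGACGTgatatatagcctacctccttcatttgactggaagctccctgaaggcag
Csad, downstream start: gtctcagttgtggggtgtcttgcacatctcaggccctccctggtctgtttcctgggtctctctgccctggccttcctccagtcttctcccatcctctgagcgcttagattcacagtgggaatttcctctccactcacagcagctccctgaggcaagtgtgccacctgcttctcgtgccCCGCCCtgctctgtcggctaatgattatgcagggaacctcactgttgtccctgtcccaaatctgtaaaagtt
Before the upstream start stood a CCAAT box (CCAAT, 75 to 71 bases before it) and the core of a cyclic AMP response element (TGACGT, 54 to 49 bases before it). Before the downstream start stood a GC box (GGGCGG, read on the opposite strand, 72 to 67 bases before it). Both strands were searched, and 33.8%, 6.47% and 32.7% of the 32851 promoter windows of this length hold these 3 motifs. The nuclear receptor half-site AGGTCA (in 14.0% of windows), its inverted repeat AGGTCANTGACCT (0.00609%), which contains the half-site, and the LRH-1 site CAAGGTCA (1.33%), which contains it too, were not matched at either start. Nor were TATAAA (12.4%), CACGTG (6.02%) or TGACNNNGC (10.2%). The downstream window held 55.6% G and C and the upstream one 44.8%, against a median of 52.4% over all windows. Promoter entries were matched for 4 of the 8 genes: Csad, Ethe1, Suox and Mpst.

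**Figure D1:**
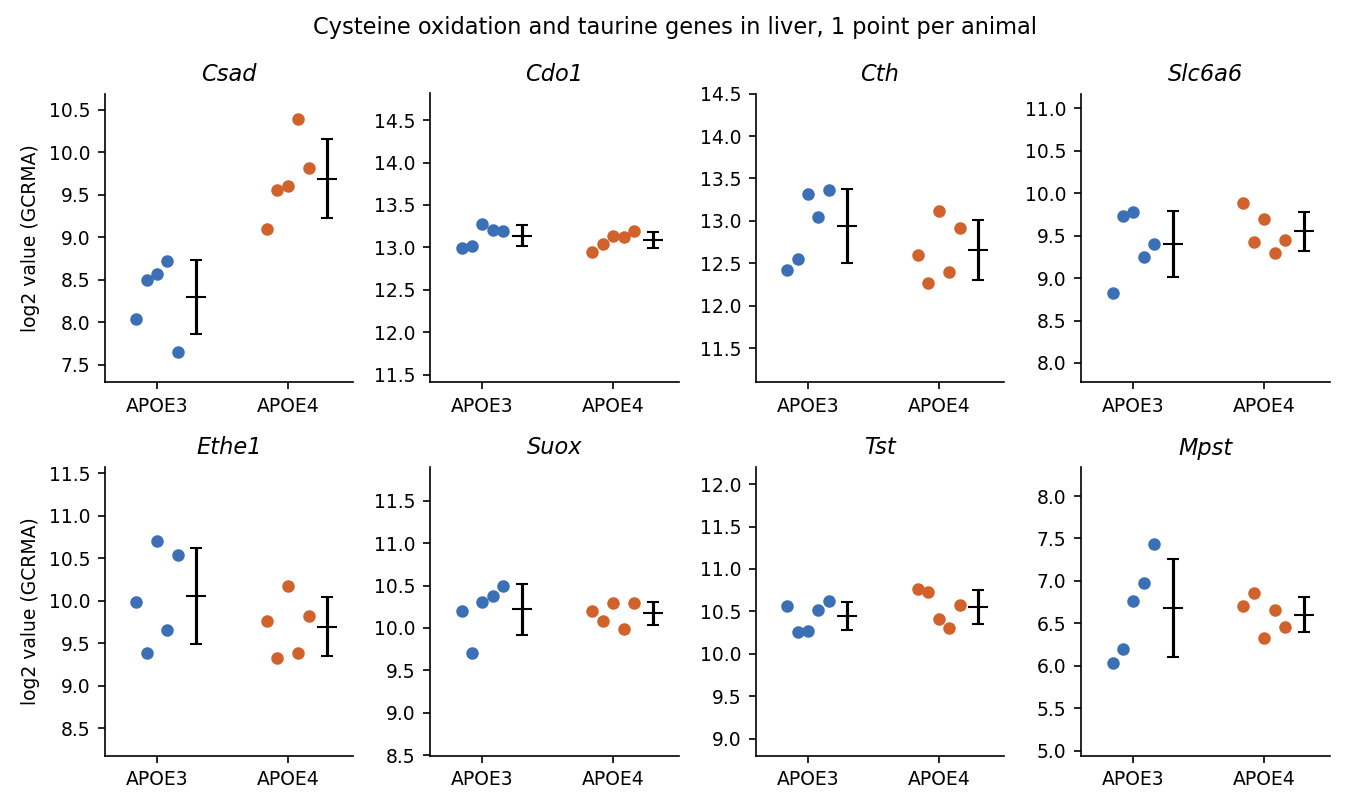
The log2 value (GCRMA) of each of the 8 genes is plotted for every animal, using for each gene its probe set of highest overall mean, with APOE3 in blue, APOE4 in orange and the group mean ± SD in black; each panel spans the same number of log2 units. The 5 APOE4 points of Csad (9.10 to 10.39) lie above all 5 APOE3 points (7.65 to 8.72), while the groups overlap in the other 7 panels.

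In the steps that supply Csad with substrate the groups overlapped. Cth encodes cystathionine gamma-lyase, which releases cysteine at the end of transsulfuration and can also make hydrogen sulfide. It read 12.42, 12.55, 13.32, 13.05 and 13.36 log2 in APOE3 replicates 1 to 5, and 12.60, 12.27, 13.12, 12.40 and 12.92 in APOE4 replicates 1 to 5. Most of the range was shared, and 2 APOE4 animals, replicates 2 and 4, lay below all APOE3 animals. The log2 difference was -0.28 (SE 0.22), or 1.21-fold higher in APOE3, and ran from -0.17 without APOE3 replicate 5 to -0.41 without APOE3 replicate 1. It was -0.18 without either APOE3 replicate 3 or APOE4 replicate 2.

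Cdo1, the cysteine dioxygenase whose product is the substrate of Csad, was nearly level across all 10 livers. It read 12.99, 13.02, 13.28, 13.21 and 13.19 log2 in APOE3 replicates 1 to 5, and 12.95, 13.04, 13.14, 13.12 and 13.19 in APOE4 replicates 1 to 5. The SD within a genotype was 0.13 in APOE3 and 0.09 in APOE4, against a median of 0.231 over all tested probe sets. Its log2 difference was -0.05 (SE 0.08). The highest value of any probe set on any array was 14.78 log2, so Cth and Cdo1 were read near the upper end of the scale.

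Slc6a6 encodes the sodium-dependent taurine transporter, which brings taurine into cells from the blood. Of its 4 probe sets, 2 had a mean of at least 4 log2 and 2 lay near background, at means of 2.63 and 1.81. The probe set with the highest mean read 8.83, 9.73, 9.78, 9.25 and 9.40 log2 in APOE3 replicates 1 to 5, and 9.88, 9.43, 9.69, 9.30 and 9.45 in APOE4 replicates 1 to 5. Only APOE4 replicate 1 lay above the APOE3 range, and the log2 difference was 0.15 (SE 0.18); without APOE3 replicate 1, the lowest animal, it was 0.009.

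The second Slc6a6 probe set above background read 5.79, 6.70, 6.64, 6.06 and 6.45 log2 in APOE3 replicates 1 to 5. In APOE4 replicates 1 to 5 it read 7.14, 6.65, 6.89, 6.19 and 6.81. Here 3 APOE4 animals, replicates 1, 3 and 5, lay above all APOE3 animals, and the log2 difference was 0.41 (SE 0.21). Both probe sets were thus higher on average in APOE4 with overlapping groups. Averaged, they gave 0.279.

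Ethe1, the persulfide dioxygenase that oxidizes sulfide-derived persulfide in mitochondria, had the largest difference in the opposite direction from Csad. It read 9.99, 9.38, 10.71, 9.66 and 10.54 log2 in APOE3 replicates 1 to 5, and 9.76, 9.33, 10.18, 9.39 and 9.82 in APOE4 replicates 1 to 5. The highest values were those of APOE3 replicates 3 and 5, and the groups overlapped over most of their range. The log2 difference was -0.36 (SE 0.25), 1.28-fold higher in APOE3, and it ran from -0.20 without APOE3 replicate 3 to -0.53 without APOE3 replicate 2. Ethe1 lies on chromosome 7, the chromosome of the replaced Apoe gene, with 138 protein-coding genes between them in the RefSeq order.

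Suox encodes sulfite oxidase, the molybdenum enzyme that makes sulfate from sulfite. It read 10.20, 9.71, 10.31, 10.38 and 10.49 log2 in APOE3 replicates 1 to 5, and 10.20, 10.08, 10.30, 9.99 and 10.30 in APOE4 replicates 1 to 5. All APOE4 values fell inside the APOE3 range. The log2 difference of -0.04 (SE 0.14) changed sign, to 0.023, without APOE3 replicate 5.

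Tst and Mpst encode the 2 related sulfurtransferases, rhodanese (thiosulfate sulfurtransferase) and mercaptopyruvate sulfurtransferase, and are adjacent on chromosome 15. Tst read 10.56, 10.26, 10.27, 10.52 and 10.62 log2 in APOE3 replicates 1 to 5, and 10.76, 10.73, 10.41, 10.30 and 10.58 in APOE4 replicates 1 to 5. Its APOE4 replicates 1 and 2 lay above the APOE3 range and the other 3 inside it, with a log2 difference of 0.11 (SE 0.11). It ran from 0.059 without APOE4 replicate 1 to 0.174 without APOE4 replicate 4, and was 0.063, 0.066 and 0.068 without APOE3 replicate 2, APOE3 replicate 3 and APOE4 replicate 2.

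Mpst varied more among APOE3 than among APOE4 livers. It read 6.03, 6.20, 6.76, 6.98 and 7.43 log2 in APOE3 replicates 1 to 5, an SD of 0.57, and 6.71, 6.86, 6.33, 6.66 and 6.46 in APOE4 replicates 1 to 5, an SD of 0.21. The APOE4 animals all fell inside the APOE3 range. The log2 difference was -0.08 (SE 0.23) and became 0.11 without APOE3 replicate 5. Whether the spread itself differs between genotypes was not tested.

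Taken over the route, 9 of the 11 probe sets had a mean of at least 4 log2 over all arrays and entered the fit, with at least 1 for each of the 8 genes. In limma with Benjamini-Hochberg adjustment over all 14732 probe sets, 0 of the 9 passed at 0.05, where 0.0815% of all tested probe sets did. Csad was the only 1 of the 9 whose groups did not overlap; of all tested probe sets 2.02% did not overlap, 1.45% with APOE4 higher. The members were chosen on this contrast, so nothing is read from these shares. With 1 probe set per gene, 3 genes were higher and 5 lower in APOE4, with a median log2 difference of -0.048, against 0.047 over all tested probe sets. Leaving out Csad, the median of the other 7 was -0.051.

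**Figure D2:**
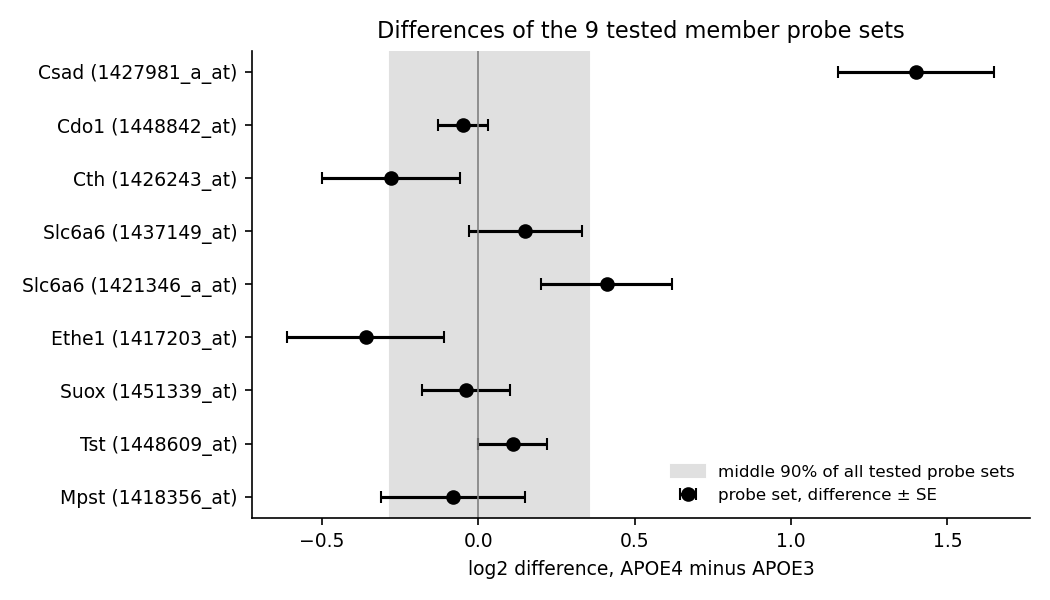
The log2 difference, APOE4 minus APOE3, is plotted with its SE for the 9 tested probe sets of the route; the grey band holds the middle 90% of all tested probe sets, from -0.28 to 0.36. Csad lies at 1.40, to the right of the band, while Ethe1 (-0.36) and the second Slc6a6 probe set (0.41) lie just beyond its edges.

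Animals of 1 genotype differed among themselves along the route, and Cth, Cdo1, Ethe1 and Suox varied together to differing degrees. After each genotype's mean was subtracted, Cth followed Cdo1 with Pearson's r = 0.79 and Spearman's rho = 0.72 over 10 arrays. It followed Ethe1 with r = 0.79 and rho = 0.73, and Suox with r = 0.73 and rho = 0.78. Ethe1 and Suox had r = 0.73 and rho = 0.54, and Cdo1 had lower values with Suox (r = 0.56, rho = 0.60) and Ethe1 (r = 0.52, rho = 0.47). Cth, Cdo1, Ethe1 and Suox were picked out by these same values. Mpst came close to some of them, with r = 0.53 with Suox, 0.45 with both Cdo1 and Cth, and 0.25 with Ethe1. For Csad, r was 0.41 with Cdo1, -0.11 with Cth, -0.35 with Suox and -0.37 with Ethe1. Without the 2 arrays farthest from the Csad median, APOE4 replicate 4 and APOE3 replicate 5, these became 0.68, 0.33, 0.00 and -0.11. The negative values with Cth and Suox thus rest on those arrays, while that with Ethe1 shrank and stayed negative. The lowest of the 28 pairs was that of Csad with Tst, at r = -0.74 and rho = -0.83, or r = -0.57 without the same 2 arrays. These values describe 10 arrays whose genes share the same RNA extract and normalization, and no p is given for them.

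The genes whose values followed Csad most closely from animal to animal were sought among 13342 tested probe sets with 1 gene name. They were Pon2, Dyrk2, Senp6, Eif2s3x and Angel2, with r from 0.94 to 0.95 over 10 arrays after each genotype's mean was subtracted, rho from 0.88 to 0.95, and r from 0.88 to 0.93 without the same 2 arrays. The log2 differences between genotypes of these 5 were 0.06 for Pon2, -0.17 for Dyrk2, 0.09 for Senp6, -0.11 for Eif2s3x and -0.07 for Angel2. An r of at least 0.8 was reached by 92 of the probe sets searched. The 5 genes were picked by this same r, so their high values follow from the search.

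Beyond the 8 genes, none of which passed, the lists of genes around the route also showed no call. Of 57 genes in 5 lists, 45 had a probe set in the test; 0 passed in limma (adjusted p under 0.05) in either direction, against 0.0815% of all tested probe sets. An unadjusted p under 0.05 was reached by 2 of the 45 genes and by 8.00% of all tested probe sets. In sum 24 were positive and 21 negative, with a median log2 difference of 0.060 beside 0.047 over all tested probe sets, and the groups separated in 0 of the 45, where they did in 2.02% of all tested probe sets.

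Among the other enzymes and transporters of taurine, 7 of 10 tested genes were positive, with a median of 0.104. Vnn3, a pantetheinase gene of the family that releases cysteamine, another source of hypotaurine, averaged 9.51 ± 0.29 log2 in APOE3 livers and 9.90 ± 0.11 in APOE4 livers (SD, n = 5 each), a difference of 0.39 (limma adjusted p = 0.58). Slc16a6, a transporter gene of the monocarboxylate family, differed by 0.50 (SE 0.28; limma adjusted p = 0.678). Fmo1, a monooxygenase that can oxidize hypotaurine to taurine, was at 0.18 (SE 0.11). The conjugating enzyme Baat, which joins taurine to bile acids, was at -0.12 (SE 0.09), and the bile acid ligase Slc27a5 before it also at -0.12 (SE 0.10). Ado, the cysteamine dioxygenase, was at 0.07 and Slc6a13, a second taurine carrier of hepatocytes, at 0.12. Gadl1, a decarboxylase related to Csad, was near background at 2.07 in APOE3 and 2.14 in APOE4 and was not tested.

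In the methionine cycle and transsulfuration, 3 of 7 tested genes were positive and 4 negative, with a median of -0.084. Cbs, which makes the cystathionine that Cth cleaves, was at 0.13 (SE 0.22). Pemt, a methyltransferase that draws on the cycle to make phosphatidylcholine, had the smallest p of the list, at 0.26 (SE 0.11; limma adjusted p = 0.593). Gnmt and Ahcy, which handle S-adenosylmethionine and S-adenosylhomocysteine, were at -0.16 and -0.13.

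The other sulfide and sulfate genes had 3 positive and 7 negative of 10 tested, with a median of -0.019. Sqrdl, the sulfide quinone oxidoreductase that precedes Ethe1, was at -0.02 (SE 0.13). Mocs2, needed for the molybdenum cofactor of sulfite oxidase, differed by 0.16 (SE 0.09; limma adjusted p = 0.665), while Tstd3 was at -0.16 and Gphn, a later step of the cofactor, at -0.11. Of the glutathione genes, 4 of 8 tested were positive and 4 negative, with a median of 0.042. Gclc and Gclm, the subunits of the rate-limiting ligase, were at 0.22 (SE 0.17) and 0.17 (SE 0.11), and Ggt6 was at -0.25 (SE 0.24).

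Bile acids are known to hold down Csad in mouse liver through the receptor FXR and the repressor SHP. Genes of that loop were therefore listed, together with other transcription factors of the liver. Of the 10 tested genes of this mixed list 7 were positive and 3 negative, with a median of 0.100. Nr1h4, which encodes FXR, was at 0.14 (SE 0.13), and Nr0b2, which encodes SHP, at 0.22 (SE 0.29), but at 0.012 without APOE4 replicate 5, the highest of the APOE4 livers. Cyp7a1, which catalyses the rate-limiting step of bile acid synthesis and is restrained by the same loop, was at -0.41 (SE 0.34). Klb, the co-receptor for the intestinal bile acid signal, differed by 0.27 (SE 0.15; limma adjusted p = 0.678), and the hepatocyte factor Hnf4a at -0.22 (SE 0.14).

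**Figure D3:**
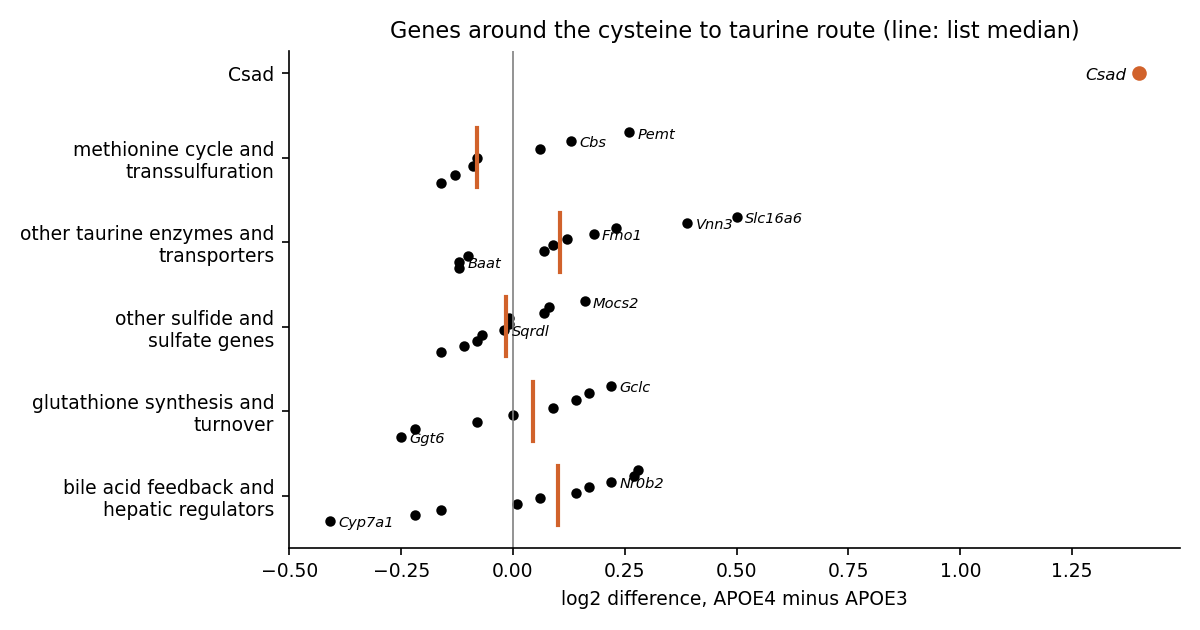
The log2 difference, APOE4 minus APOE3, is plotted for each tested gene of the 5 lists around the route (black points, 1 probe set per gene) with the list median as an orange line, and for Csad as the orange point on top. The list genes lie between -0.41 (Cyp7a1) and 0.50 (Slc16a6), and Csad at 1.40.

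No tested neighbour of Csad on chromosome 15 passed. Of the 10 genes on each side in the RefSeq order, 10 of the 20 were tested, 0 passed in limma (adjusted p under 0.05, against 0.0815% of all tested probe sets) and 0 had an unadjusted p under 0.05, against 8.00% of all tested probe sets. Their log2 differences ran from -0.29 to 0.20, with 6 positive and 4 negative and a median of 0.052. Zfp740, the zinc finger gene next to Csad in that order, had 6.26 ± 0.34 log2 in APOE3 and 6.46 ± 0.18 in APOE4 (SD, n = 5 each), a difference of 0.20 (SE 0.16). Krt8, an epithelial keratin gene, was at -0.28 (SE 0.21), and Myg1 at 0.18 (SE 0.15), or 0.32 without APOE3 replicate 5. Soat2, the neighbour on the other side, was not analysed here.

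**Figure D4:**
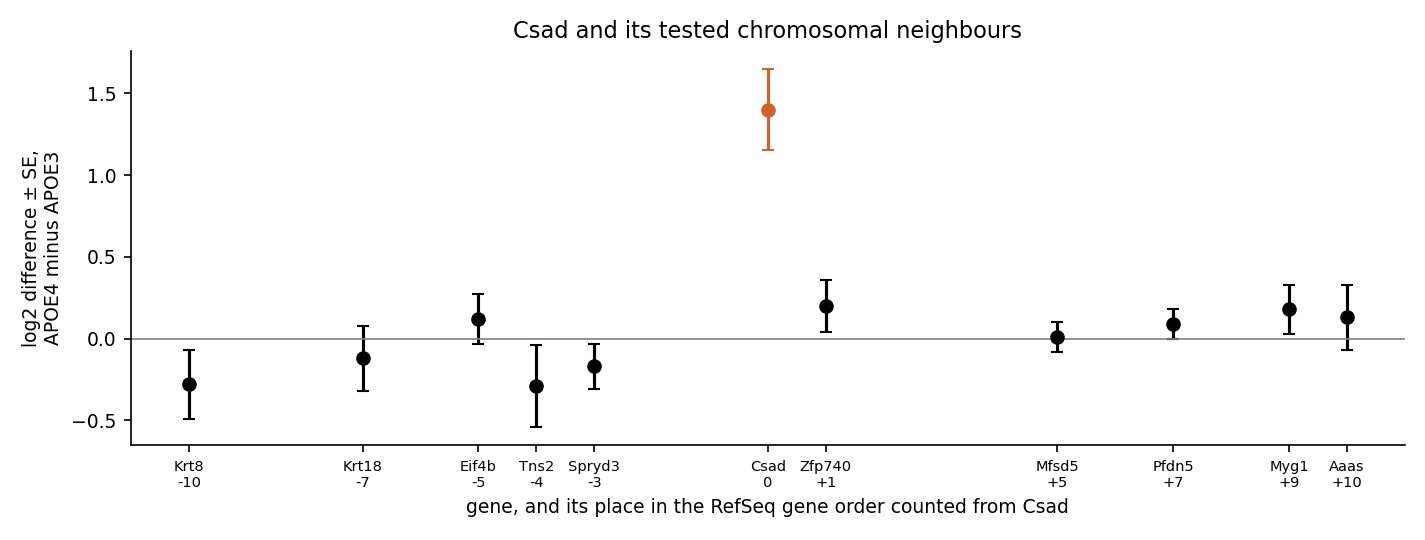
The log2 difference, APOE4 minus APOE3, is plotted with its SE for Csad (orange) and its 10 tested neighbours (black) by their place in the RefSeq gene order. All neighbours lie between -0.29 and 0.20, and Csad at 1.40.

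The arrays were checked on a few measures, none of which can show whether an array carries the right genotype label. Mouse Apoe, replaced in both groups, gave only 0.96 to 1.19 log2 on the 10 arrays. Hepatocyte markers were high on average in both groups, with a mean of 12.3 ± 0.20 log2 in APOE3 livers and of 12.1 ± 0.15 in APOE4 livers (two-sided exact permutation p = 0.24), with 11 of 14 genes lower in APOE4. The 11 include Ass1, whose probe set lay near background, at 3.70 in APOE3 and 3.39 in APOE4. Kupffer cell and macrophage markers ranged from 8.28 to 9.75 in APOE3 and from 8.10 to 9.03 in APOE4, with 12 of 14 genes lower in APOE4 (exact permutation p = 0.46). Endothelial (7.07 and 7.08), stellate (7.25 and 7.24), cholangiocyte (2.77 and 2.85) and lymphocyte (3.56 and 3.42) lists gave exact permutation p-values of 0.86, 0.97, 0.25 and 0.38. Lower in APOE4 were 4 of 9 endothelial, 6 of 9 stellate, 1 of 5 cholangiocyte and 7 of 7 lymphocyte genes. On all arrays 4 of the 5 cholangiocyte and 5 of the 7 lymphocyte genes lay under 4 log2. The means of those lists thus rest mostly on readings near background. Adipocyte, exocrine pancreas and kidney lists stayed between 1.57 and 2.78 on every array, with exact permutation p-values of 0.67, 0.17 and 0.71. The 3′ minus 5′ difference of Actb (2.68 and 2.64) and of Gapdh (0.439 and 0.396), a sign of RNA integrity, gave p = 0.88 and 0.73 by the same exact permutation test. The array medians, 2.64 to 2.67 and 2.62 to 2.64, gave the smallest p that 252 splits allow (exact permutation p = 0.0079, and 0.0948 after adjustment over the 12 checks).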

How the data were processed

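Per the submitters' processing notes, the authors made the deposited log2 values with GCRMA 2.12.1 in R 2.7.1. This method subtracts background estimated with each probe's base sequence, quantile-normalizes the arrays and summarizes each probe set as a single value. Values under about 4 are near its floor and have no sure scale. Groups came from the sample titles; the labels state 1 extract per animal, and no batch is given.

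The 64 control probe sets were left out. Probe sets with a mean of at least 4 log2 were compared with limma 3.58.1 in R 4.3.3 (lmFit, eBayes, two-sided), adjusted over 14732. Standard errors of members came from the same fit without the filter. Probe sets with 1 annotated symbol (34945) were named; genes were shown by the one with the highest mean. The procedure was tested on simulated data. Figures used Python 3.11.15 with matplotlib 3.10.9. Precision is limited by the number of arrays.

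The members and lists were chosen with earlier results of these data known. The naming rule took the members, a few fixed genes, the 5 genes most like Csad, and up to 3 genes with the smallest p per pathway or neighbour list. Slc27a5, Ado, Slc6a13, Gadl1 and Nr1h4 were named outside this rule. Marker lists are given as means, with Ass1 named for its low level. Alternatives were no filter, a mean of at least 6, trend and robust eBayes, array weights, renewed quantile normalization, centring, 1 probe set per gene, values under 4 set to 4, the replicate number as a block, 5 neighbours on each side, averaged probe sets, and leaving out each animal.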

Additional observations from a re-analysis of the deposited data

Results flagged for a closer look

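No member probe set had an animal set apart from its group by Dixon's test at the 95% level, in 18 groups of 5. Among the other genes named by rule 3 animals were set apart, of 72 groups checked in all, where chance gives about 1 in 20. Slc27a5, Ado, Slc6a13, Gadl1 and Nr1h4 were not checked. Nr0b2, which encodes SHP, was at 10.01 log2 in APOE4 replicate 5, against 8.89 to 9.16 in the other APOE4 livers, and its log2 difference went from 0.22 to 0.012 without that animal. Fmo1 was at 10.73 in APOE4 replicate 4, the liver with the highest Csad value, against 11.02 to 11.14 in the others of its group, and its difference went from 0.18 to 0.25 without it. Myg1 was at 7.19 in APOE3 replicate 5, the liver with the lowest Csad value, against 6.42 to 6.55, and its difference went from 0.18 to 0.32 without it. These fits without 1 animal were chosen after seeing the data.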

How the results depend on the processing

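The Csad difference ran from 1.22 to 1.55 log2 over its 15 alternatives. Leaving out 1 animal could not change its sign, because the groups did not overlap. Setting values under 4 to 4 could not change it either, as all Csad values lay higher. Of the member probe sets 0 passed in any of the 19 alternative fits. No gene of the pathway lists and no neighbour of Csad passed in their alternatives, also without any 1 animal (0 in each). The median over the 8 genes ran from -0.126 to 0.066 without 1 animal, positive only without APOE3 replicate 5. The signs of Cdo1, Cth, Slc6a6, Ethe1 and Tst held in all their alternatives; those of Suox and Mpst did not. The count of called probe sets, 12, was 5 with a mean of at least 6 and 7 with 1 probe set per gene, fits that tested fewer probe sets, and 8 to 14 without 1 animal. With the replicate number as a block 11 were called, 0 of them members. The Csad difference stayed at 1.40, which a balanced block cannot change. Same-numbered arrays had correlations from -0.079 to 0.414, and 2 of the 5 APOE3 arrays correlated best with their own number, so the numbers were not taken as pairs. Over all tested probe sets the median was 0.047, with 0.004 after quantile normalization and 0.078 after centring. No other Csad probe set was there to compare. The 5 animals per genotype, 1 probe set for 7 of the 8 genes and the near-background Slc6a6 probe sets limit what these arrays can show.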
